A study of Arabidopsis thaliana with 4 samples.

Results

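Small heat shock protein genes of Arabidopsis thaliana were taken by locus: ATHSP22.0, AT1G53540, AT4G21870, AT2G29500, AT1G07400, AT1G59860, AT1G54050 and AT5G51440, wherever a probe set is listed to 1 gene. Of these 8 loci, 6 have such a probe set, among 13356 genes of the array with one. AT1G07400 and AT1G59860 are listed together on 1 probe set that cannot be given to either, so no value is given for them. All 6 members passed the filter on dim probe sets. AT4G21870 was singled out for its lower signal in RNAi groups 2 and 3, so its values are a description and carry no test. The members were grouped as bright cytosolic genes set against AT4G21870, but ATHSP22.0 encodes a protein of the endoplasmic reticulum and AT5G51440 one of mitochondria.

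Small heat shock proteins are chaperones that hold unfolding proteins in a soluble state until other chaperones refold them. They share a conserved alpha-crystallin domain, and separate members work in the cytosol and nucleus, the endoplasmic reticulum, mitochondria, plastids and peroxisomes. In leaves most of their genes are nearly silent at ordinary growth temperature and are switched on by heat shock transcription factors when plants are heated, while some members are also made during seed and flower development.

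Arabidopsis thaliana plants carrying an inverted repeat made from the myosin XI-K reading frame, which triggers RNA interference (RNAi) against this actin-based motor, were measured as 3 independent groups, beside 1 control group that constitutively expresses the bacterial reporter gene GUS, so every group carries a transgene. Each group gave 1 Affymetrix array, from 5 µg of total RNA of rosette leaves, cauline leaves and flowers mixed in equal parts. The promoters of the constructs, the plants' age and temperature and the number of plants per group are not stated in the sources used here. In all 22810 rows the GUS control column repeats that of RNAi group 1 value for value, so the pair was treated as a single sample, called the shared array. It bears the labels of a control and of a silenced group, so no difference below is assigned to silencing; RNAi groups 2 and 3 (n = 2), here called groups 2 and 3, were compared with the shared array (n = 1).

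The deposited values are probe set intensities (signals) on a linear scale, each array having a mean, after trimming 2% from both ends, between 500.05 and 500.06. Between 24.99% and 27.7% of signals outside the control probe sets lay under 32, and the highest signal was 28999.7 on the shared array, 35199.6 in group 2 and 30140.6 in group 3. The ratio of the 3′ to the 5′ actin control probe set, a measure of RNA or cRNA length, was 5.38 on the shared array, 16.8 in group 2 and 13.3 in group 3. The same ratio lay between 0.786 and 1.01 for GAPDH and between 1.48 and 1.96 for ubiquitin. Leaf tissue was visible in RCA, the Rubisco activase, with 21684.4, 20964.3 and 22392.2 on the shared array and in groups 2 and 3, and in LHCB4.1, a light-harvesting protein, with 20086.6, 14452.3 and 20157.2. No probe set for myosin XI-K was analysed here, and the silencing itself was not checked.

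Apart from AT4G21870, the members stood at the bright end of every array. They had been grouped as bright with earlier results of these data known, so their place is a description and not a finding. Their 5 probe sets had signals from 11739.7 to 21925.2 on the shared array, from 11128.8 to 22353.2 in group 2 and from 15224.1 to 22997.9 in group 3. On all 3 arrays each of the 5 lay above at least 99.2% of the 22746 probe sets. A place among probe sets describes brightness on the array and gives no order of transcript amounts between genes, because probe sets differ in how strongly they bind. AT4G21870 lay above 92.3% of probe sets on the shared array, 70.6% in group 2 and 63.6% in group 3.

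**Figure D1:**
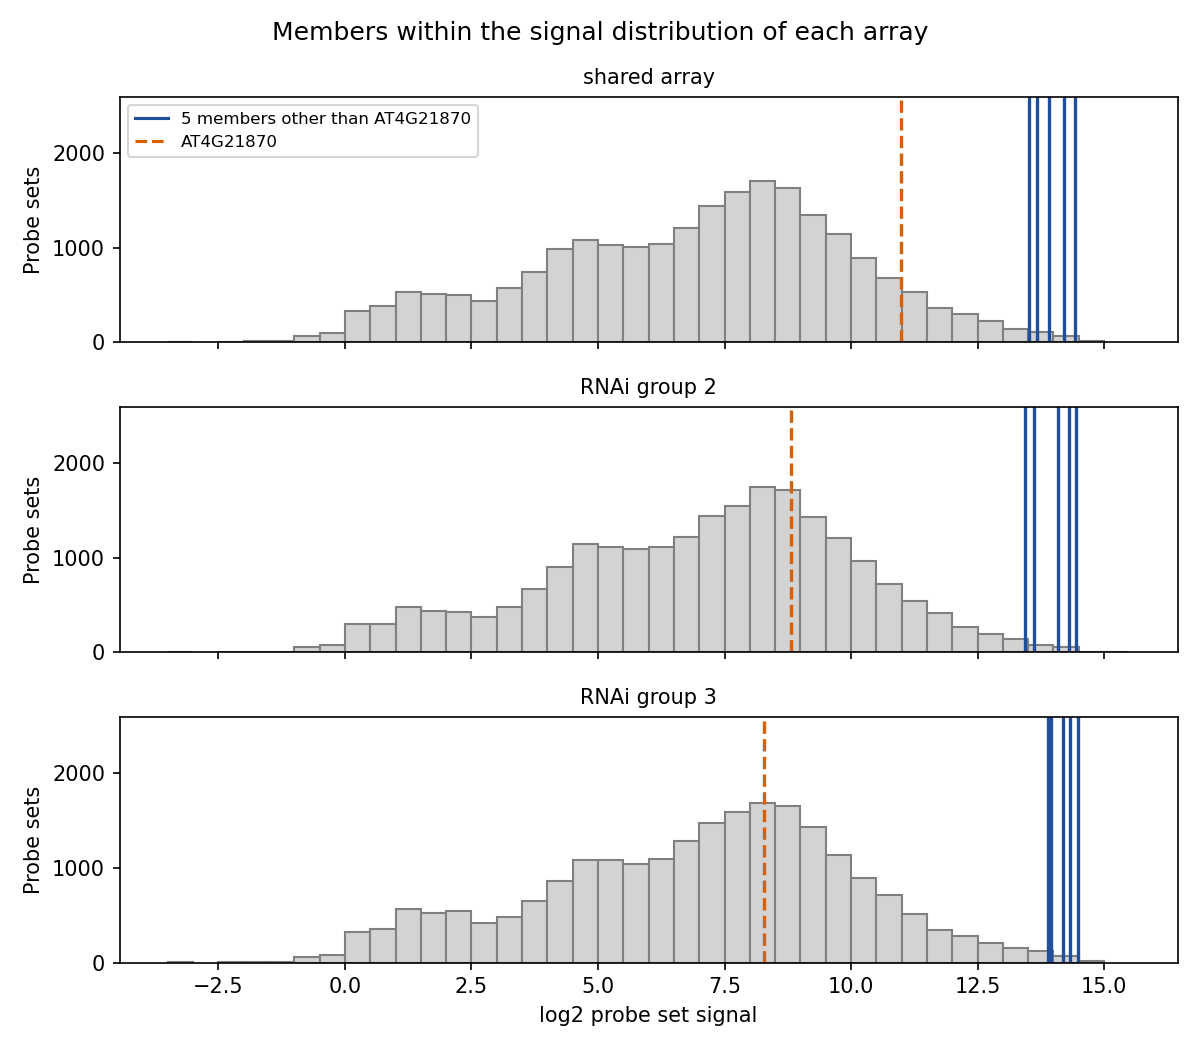
Number of probe sets (vertical axis) by log2 signal (horizontal axis, bins of 0.5) on the shared array and in groups 2 and 3, with 1 vertical line per member. The 5 solid lines lie at the right-hand edge on each array, above at least 99.2% of probe sets, while the dashed line of AT4G21870 moves from 2040.5 on the shared array to 448.2 and 310.2.

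AT1G53540 and AT2G29500 encode class I cytosolic small heat shock proteins, the form that gathers into granules in heated cells. AT1G53540 had 18839.1 as its signal on the shared array, with 20227.6 in group 2 and 20628.6 in group 3. AT2G29500 had 21925.2, 22353.2 and 22997.9 in the same order. Both genes had their lowest signal on the shared array and their highest in group 3. Group 3 lay 1.09-fold above the shared array for AT1G53540 and 1.05-fold for AT2G29500. This order rests on the scaling. With quantile normalisation, AT1G53540 lay 0.116 log2 units above the shared array in group 2 and 0.083 in group 3. The values for AT2G29500 were 0.070 and 0.025. With each array centred on its median, group 2 lay below the shared array, at -0.020 for AT1G53540 and -0.095 for AT2G29500. The log2 difference of the mean of groups 2 and 3 from the shared array was 0.12 (SE 0.48) for AT1G53540 and 0.05 (SE 0.48) for AT2G29500, with an adjusted p of 0.9999 for each in limma, a linear model fitted across all probe sets. The difference of AT2G29500 turned to -0.03 when each array was centred on its median.

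AT1G54050 encodes a class III small heat shock protein of the cytosol and nucleus. Its signal was 15309.6 on the shared array, 17379.7 in group 2 and 15915.2 in group 3. Group 2 was the highest of the 3 and group 3 lay close to the shared array. The log2 difference was 0.12 (SE 0.48; limma adjusted p = 0.9999).

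ATHSP22.0, locus AT4G10250, encodes the small heat shock protein of the endoplasmic reticulum. Its signal was 13069 on the shared array, 11128.8 in group 2 and 18577.5 in group 3. The groups lay on opposite sides of the shared array and were 1.67-fold apart, the widest spread between groups 2 and 3 among the members. The log2 difference was 0.14 (SE 0.53; limma adjusted p = 0.9999), made of -0.23 in group 2 and 0.51 in group 3.

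AT5G51440 encodes a mitochondrial small heat shock protein. It had 11739.7 on the shared array, 12537.4 in group 2 and 15224.1 in group 3. Both groups lay above the shared array, group 3 by 1.30-fold. In group 2 the log2 difference was 0.09, which turned to -0.03 with each array centred on its median. The difference of the mean of both groups, 0.23 on the log2 scale (SE 0.49; limma adjusted p = 0.9999), was the largest of the 5 bright members.

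AT4G21870 encodes a small heat shock protein outside the main cytosolic classes. Its signal was 2040.5 on the shared array, 448.2 in group 2 and 310.2 in group 3. The shared array was 4.55-fold above group 2 and 6.58-fold above group 3, and the groups were 1.44-fold apart. The log2 difference was -2.45 (SE 0.53), the second most negative of 15922 probe sets. Of the 15922 probe sets kept, 0.364% were at least 2-fold lower in both groups than on the shared array and 0.0251% at least 4-fold lower. Nothing is read from these shares, since the gene was chosen for this difference. With 1 array for each level, the order of the levels carries no spread of its own.

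**Figure D2:**
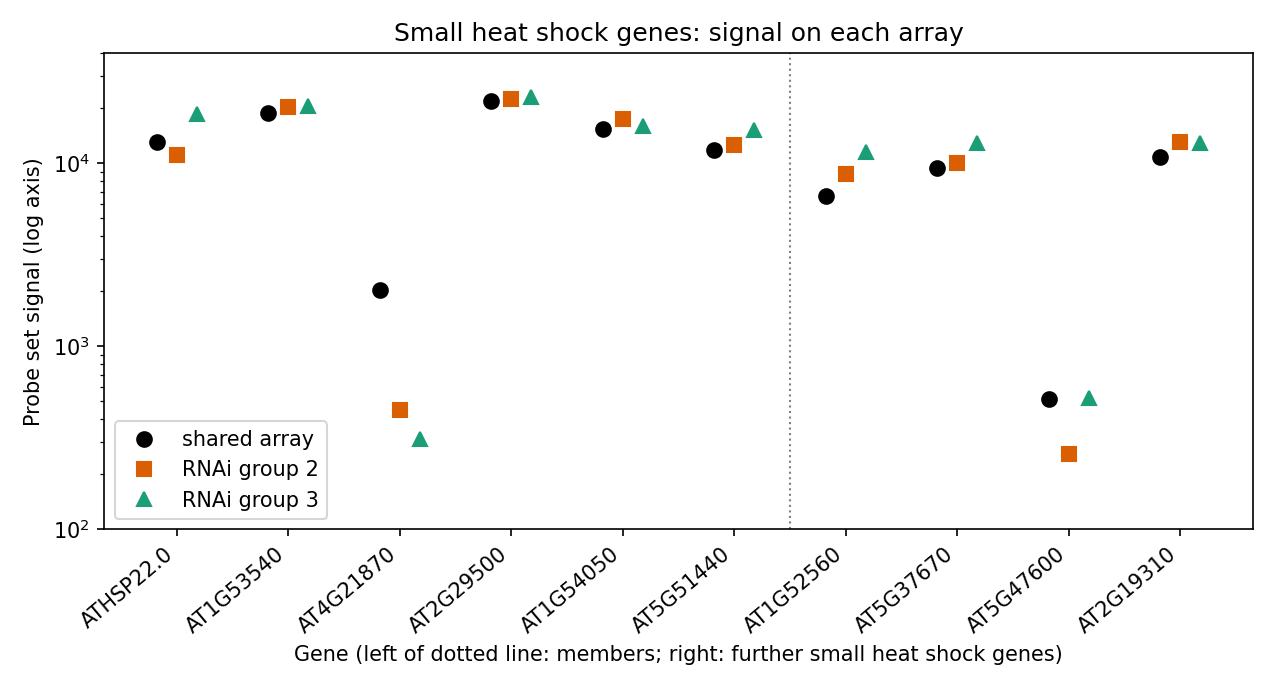
Probe set signal (logarithmic vertical axis) of the 6 members and of 4 further small heat shock genes on the shared array (circles) and in groups 2 (squares) and 3 (triangles), 1 array each, with no error bars. AT4G21870 lies at 2040.5, 448.2 and 310.2, while the other 5 members lie between 11128.8 and 22997.9.

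Within an array, the signal of AT4G21870 relative to the other members shifted in 1 direction. Relative to AT1G53540, its log2 ratio was -3.21 on the shared array, -5.50 in group 2 and -6.06 in group 3. Relative to ATHSP22.0 it was -2.68, -4.63 and -5.90. Against all 9 other small heat shock genes with a probe set the ratio was lower in both groups, with shifts between -1.19 and -2.59 log2 units in group 2 and between -2.74 and -3.51 in group 3. These ratios show unequal change within an array and contain the difference for which AT4G21870 was chosen, so they were not tested.

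Of the 5 bright members, 0 passed in limma in either direction, and 0 had an unadjusted p under 0.05. Over all 15922 probe sets kept, 0.0314% passed as higher and 0% as lower. Of the 5 that passed as higher, 3 are pollen markers with signals under 32 on the shared array. These 3 passed the filter only through groups 2 and 3, so nothing is read from their passing. At an unadjusted p under 0.05, 147 probe sets were higher and 48 lower. The 95% interval of the difference reached from 2.11-fold lower to 2.55-fold higher for ATHSP22.0 and from 1.97-fold lower to 2.32-fold higher for AT1G53540. These bounds describe the estimates and are not a limit of detection for the adjusted test. The 149 probe sets at 10000 or more on all 3 arrays, which include the 5 members, had a median absolute log2 difference of 0.17, against 0.25 for all kept probe sets, and 0 of them were at least 2-fold apart in 1 direction in both groups. Whether such bright signals are close to the upper limit of the scanner was not tested.

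Of the 5 bright members, 4 lay above the shared array in both groups, with a median log2 difference of 0.12 over the 5. Over the 15922 kept, 30.2% lay above and 23.3% below the shared array in both groups, and the median difference was 0.04. The count rests on small differences and on the scaling: it was 3 of 5 with quantile normalisation and 1 of 5 with each array centred on its median, which lowers group 2 by 0.12 log2 units and group 3 by 0.03 against the shared array. Between the groups, 4 of the 5 were brighter in group 3, against 49.3% of all kept probe sets, and 2 of 5 were with quantile normalisation.

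Further small heat shock genes were read from a list of 12 loci, of which 4 have a probe set listed to 1 gene. AT1G52560, whose product goes to mitochondria and plastids, had 6623.8 on the shared array, 8785.8 in group 2 and 11501.6 in group 3. Its difference, 0.60 on the log2 scale (SE 0.50; limma adjusted p = 0.9999), was the largest positive one among the 10 small heat shock genes with a value. AT5G37670, the peroxisomal member, had 9379.8, 10039.5 and 12818. AT2G19310, a further cytosolic member, had 10796.8, 13021.8 and 12876.8. These 3 genes were above the shared array in both groups, as were 30.2% of all kept probe sets, and each lay above at least 97.98% of probe sets on all 3 arrays. Over the 9 small heat shock genes other than AT4G21870 the count was 7, which became 6 with quantile normalisation and 3 with median centring, where AT5G37670 turned to -0.02 in group 2.

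AT5G47600, which like AT4G21870 lies outside the main cytosolic classes, also lay lower among probe sets, above 74.7% of them on the shared array, 58.4% in group 2 and 74.7% in group 3. Its signal was 517.5 on the shared array, 258.9 in group 2 and 524.9 in group 3. It matched the shared array in group 3 and was 2.03-fold lower in group 2 than in group 3, whereas AT4G21870 was lower in both. Its log2 difference was -0.49 (SE 0.58; limma adjusted p = 0.9999), which becomes -0.999 with group 2 alone and 0.02 with group 3 alone. Of the 4 further genes, 0 passed in either direction and 0 had an unadjusted p under 0.05 in limma. Such counts say little about these genes, since limma called only 0.0314% of all kept probe sets higher and 0% lower.

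Chaperones, co-chaperones and the heat-induced gene HSA32 were read from a list in the same way. Of 30 listed chaperone and co-chaperone loci, 8 have a probe set listed to 1 gene. Of these 8, 0 passed in either direction in limma, with 0 at an unadjusted p under 0.05. Among all 15922 kept probe sets, limma called 0.0314% higher and 0% lower. Its unadjusted p was under 0.05 for 147 higher and 48 lower ones. A count of 0 among 8 genes therefore says little about this list. AT2G20560, a J-domain partner of HSP70, had 6794.4 on the shared array, 9343.8 in group 2 and 13840.5 in group 3, which differ by 0.74 on the log2 scale (SE 0.52; limma adjusted p = 0.9999). Hop2, a co-chaperone that links HSP70 and HSP90, had 3889.1, 5667.6 and 5283.9 (log2 difference 0.49, SE 0.50; limma adjusted p = 0.9999). In both genes the shared array was the lowest of the 3.

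The other genes of this list lay closer to the shared array, with log2 differences from -0.03 for AT5G48570 to 0.42 for the cytosolic HSP70 gene Hsp70-2. AT5G48570, an FKBP-type co-chaperone, had 18990.5, 18485.1 and 18735.8, with all arrays within 1.03-fold. HSA32, a heat-induced gene needed for lasting heat tolerance, had 8941.5, 8454.8 and 13800.6, and like ATHSP22.0 lay below the shared array in group 2 and above it in group 3. Hop1 had 548.6, 586.5 and 810 and lay above 75.6% of probe sets on the shared array. Of the 8, 6 were above the shared array in both groups, with a median log2 difference of 0.30, against 30.2% of all kept probe sets and a median of 0.04. The count was 7 with quantile normalisation and 4 with median centring.

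**Figure D3:**
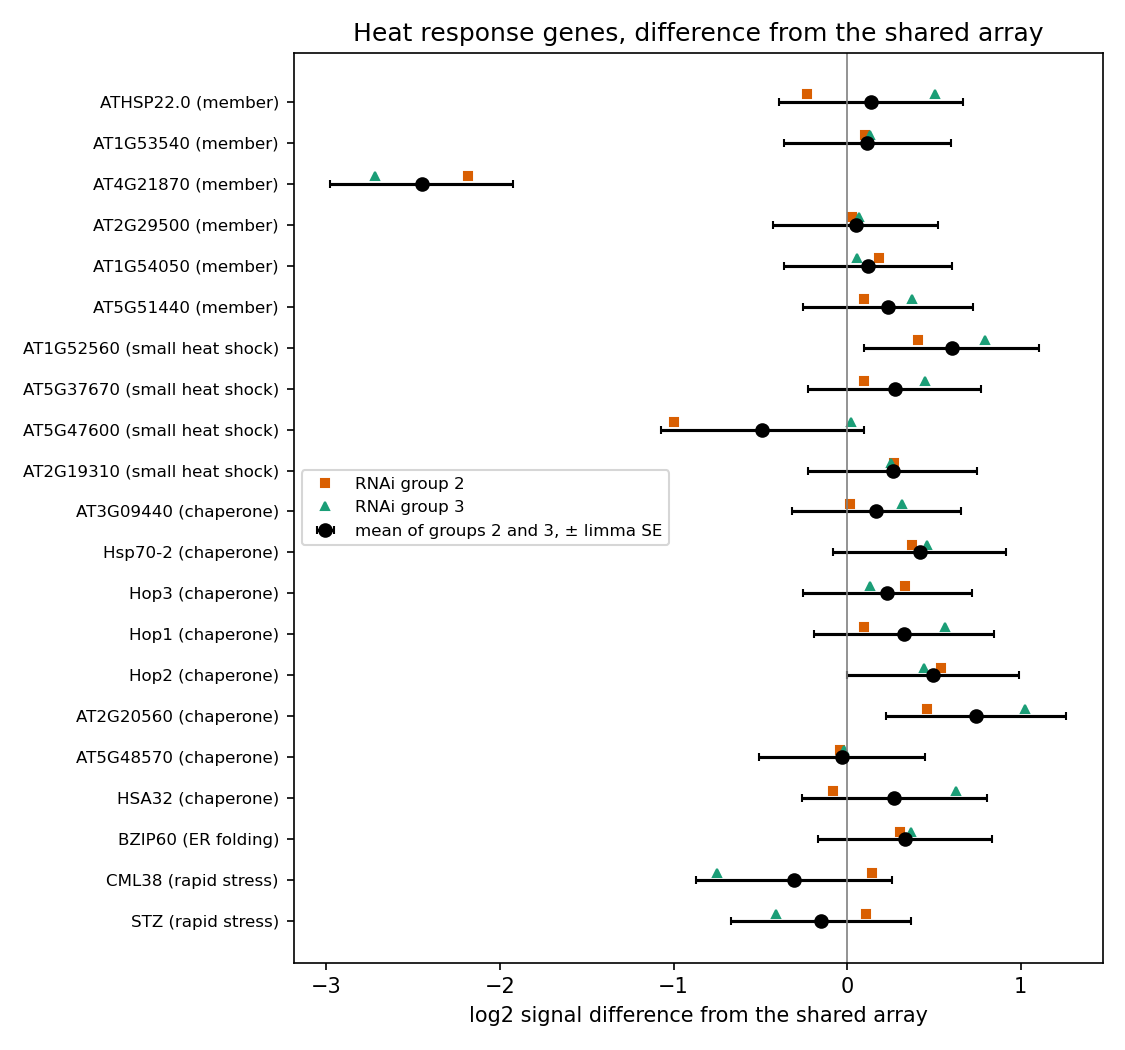
Difference in log2 signal from the shared array (horizontal axis) for group 2 (squares), group 3 (triangles) and their mean (circles) with its limma standard error. Genes with a probe set listed to 1 gene are shown: small heat shock genes, genes of the chaperone list, and the endoplasmic reticulum folding and rapid stress genes. AT4G21870 lies at -2.45, and the other means run from -0.49 for AT5G47600 to 0.74 for AT2G20560.

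Genes upstream of the response and of neighbouring stress pathways had few named probe sets. The lists of 22 heat shock transcription factor loci and of 5 further heat-induced loci had 0 with a probe set listed to 1 gene. Of 9 loci for protein folding in the endoplasmic reticulum, the compartment of ATHSP22.0, 1 had a value: BZIP60, a transcription factor of the unfolded protein response, with 2005.4 on the shared array, 2473.1 in group 2 and 2586.9 in group 3 (log2 difference 0.33, SE 0.50). Of 11 rapid stress loci, 2 had values. CML38, a calmodulin-like protein, had 3054.3, 3368.6 and 1813.1, and STZ, a stress-induced zinc finger repressor, had 5432.1, 5863.4 and 4094.7. Both were lowest in group 3. BZIP60, CML38 and STZ had an adjusted p of 0.9999 in limma.

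The genes nearest in pattern were sought among 8566 other named genes, by the distance between their pairs of log2 differences (groups 2 and 3, each from the shared array), which rests on 3 arrays. For AT4G21870 the nearest was AT3G06070, at a distance of 0.21, with 969.8 on the shared array, 229.5 in group 2 and 166.9 in group 3. AT5G38130 (distance 0.58) and BAT1, which modifies brassinosteroid hormones (distance 0.75), came next. AT3G06070 was the 1 probe set within 0.25 of AT4G21870. Over all 15922 kept probe sets, named or not, 2192 others lay within 0.25 of AT1G53540 and 1001 within 0.25 of ATHSP22.0. The nearest named genes were AT1G19980, AT3G13410 and AT2G38410 for AT1G53540. For ATHSP22.0 they were AT3G09630, AT5G62910 and AT2G40815. The small differences of AT1G53540, 0.10 in group 2 and 0.13 in group 3, are thus shared with many probe sets. Those of ATHSP22.0, -0.23 and 0.51, are shared with fewer. Likeness to either of these members carries little information.

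**Figure D4:**
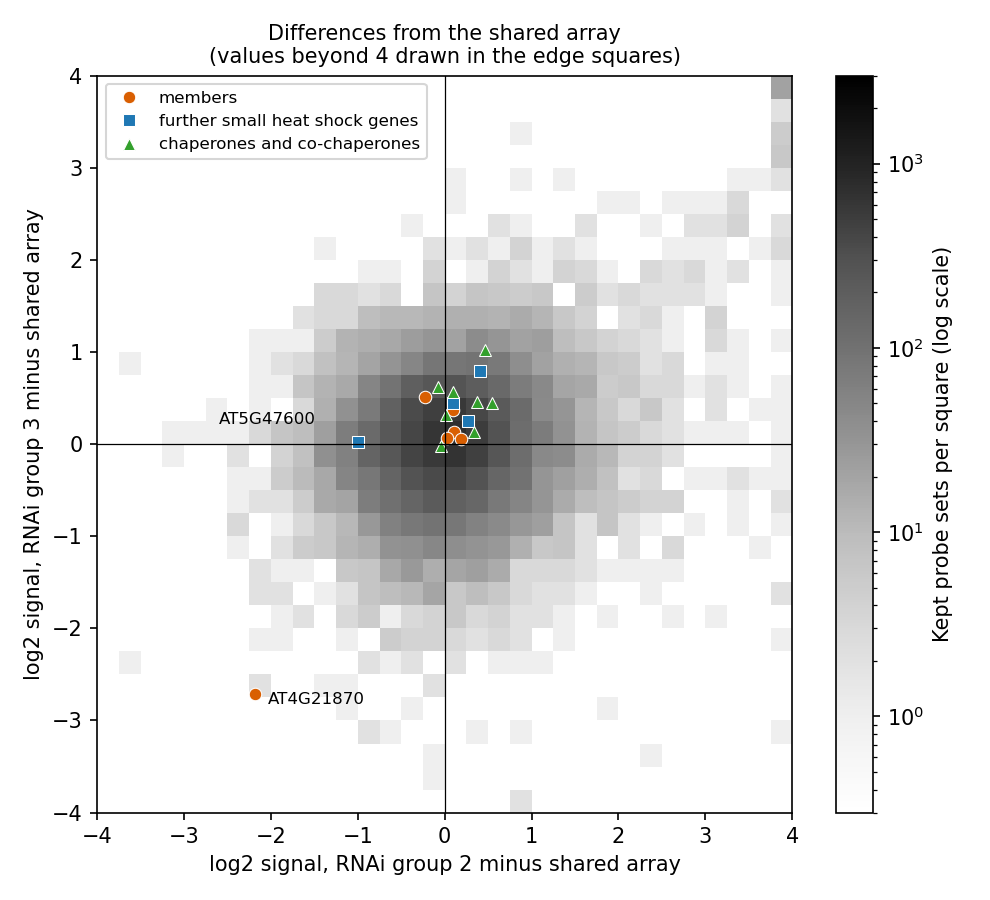
Difference in log2 signal from the shared array in group 2 (horizontal axis) and in group 3 (vertical axis); grey squares give the number of kept probe sets and symbols the heat response genes. Both axes subtract the same array, so a common direction is in part built in. AT4G21870 lies at -2.19 and -2.72, apart from the other members near the centre, and AT5G47600 lies at -0.999 and 0.02.

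The protein-coding genes next to each member on the chromosome were read in the same way, and 5 of 12 have a probe set listed to 1 gene. Beside AT4G21870, AT4G21865 had 203 on the shared array, 131.8 in group 2 and 109.3 in group 3 (log2 difference -0.76, SE 0.55; limma adjusted p = 0.9999). AT4G21880, on the other side, had 28.3, 9.4 and 31.3 and was under the filter. The neighbour of AT1G53540, AT1G53530, had 480.9, 474 and 614.1, and that of ATHSP22.0, AT4G10260, had 61.1, 55.6 and 71.3. AT2G29510, beside AT2G29500, had 434.2, 306.3 and 684.4. These 3 neighbours of bright members had signals of 61.1 to 480.9 on the shared array.

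Markers of pollen and other tissues were read on the same arrays. Of 10 pollen loci, 6 had a probe set listed to 1 gene and 5 of them were above the shared array in both groups. The share over all kept probe sets was 30.2%. Nothing is read from this count, since the list was chosen with earlier results of these data known. ACT12, a pollen actin gene under the filter, had 31, 46.3 and 11.8. Their summed signal was 214.2 on the shared array, 2951.9 in group 2 and 1300.8 in group 3, and 5 of the 6 were under 32 on the shared array. AT3G07820 had 3 on the shared array against 709.5 in group 2 and 296.2 in group 3, AT5G07430 had 1.9 against 496.8 and 192.1, and AT5G45880 had 11.3 against 949.6 and 391.6. AtVEX1 had 30.4 against 98.7 and 68. AtVEX1 and the 3 genes before it passed the filter only through groups 2 and 3. They were listed with their results known, so they are given without a test. With signals under 32 set to 32 the log2 differences were 3.84, 3.27 and 4.25 for the 3 genes and 1.36 for AtVEX1. AT2G47050 had 136.6, 651 and 341.1. The 2 named tapetum markers of 6 loci summed to 1173.4, 766.8 and 1253.4, the brighter being AT5G07230 with 974.3, 616.3 and 1064.7 and the dimmer AMS, a tapetum transcription factor, with 199.1, 150.5 and 188.7, both with group 3 near the shared array and an adjusted p of 0.9999 in limma. The 2 leaf markers of 8 loci summed to 41771, 35416.6 and 42549.4. The 2 root markers, PYK10 and EXPA7, were under 50 on each array, with sums of 33.7 to 47.4, and the 5 floral organ and 7 seed loci had no value here. In such mixed tissue, fewer cells of a type and less RNA per cell cannot be told apart. The summed signal of the pollen markers was higher in both groups where AT4G21870 was lower. So was the actin 3′ to 5′ ratio, with 5.38 on the shared array against 16.8 in group 2 and 13.3 in group 3. In the same order, the GAPDH ratio was lower in both groups (1.01, 0.913 and 0.786). The ubiquitin ratio was mixed (1.74, 1.96 and 1.48). The part of these measures in the difference of AT4G21870 was not tested.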

How the data were processed

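Total RNA of mixed leaves and flowers was measured on 1-colour Affymetrix arrays, 1 per group of plants. The deposited values are probe set intensity, made by the authors with GCOS and MAS5, as the submitters' processing notes name them, with no version given. Arrays were not scaled again, and detection calls were not used.

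Of 22810 probe sets, 64 controls were left out. Names came from the platform annotation, updated through the TAIR10.1 gene table: of 13513 probe sets listed to 1 gene, 13436 matched. The other 503 listed to several genes and 8730 unlisted ones were not named. Where a gene had more than 1 probe set, the brightest by mean log2 signal was used.

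Signals were put on the log2 scale, and 15922 probe sets whose mean lay over the 30th percentile of these means (5.307) were kept. RNAi groups 2 and 3 were tested against the shared array with lmFit and eBayes of limma 3.58.1 (R 4.3.3), 2-sided, letting the prior spread follow intensity, and with Benjamini-Hochberg adjustment over all kept probe sets and a threshold of 0.05. The fit has 1 residual and 7.45 prior degrees of freedom; it takes the spread of the shared array to equal that of the RNAi arrays. The p-values combine the spread between the arrays of RNAi groups 2 and 3 with the prior spread, which is taken from all kept probe sets. By these degrees of freedom the prior has most of the weight. The number of arrays limits the precision. Probe sets under the filter took no adjusted p. The script was tested on simulated data.

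The members, the gene lists, the markers and the treatment of the identical columns as 1 sample were chosen with earlier results of these data known. Named genes are all small heat shock genes with a value, the 2 largest differences of each pathway list, the 2 brightest of each marker list and the 3 nearest in pattern to ATHSP22.0, AT1G53540 and AT4G21870. Hsp70-2, AT5G48570, HSA32, Hop1, the pollen markers ACT12, AT3G07820, AT5G07430 and AtVEX1, and the chromosomal neighbours were added after their values were seen.

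Alternatives were quantile normalisation, median centring, signals under 32 set to 32, 16 added to each signal, no filter, a filter at the 50th percentile, no intensity trend, robust eBayes, all 4 columns as 3 RNAi arrays against 1 control, and leaving out RNAi group 2 or 3.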

Additional observations from a re-analysis of the deposited data

How the results depend on the processing

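The count of tested small heat shock members and that of other heat response genes past the test was 0 in limma under every setting run that allows a test, with 0 at an unadjusted p under 0.05. The 5 probe sets higher over the whole table became 0 with quantile normalisation, signals under 32 set to 32, 16 added to each signal, no filter, robust eBayes and all 4 columns, and 13 without the intensity trend; the cause was not tested. A fit of 4 columns counts the shared array in both groups. The log2 difference of AT4G21870 ran from -2.53 with median centring to -1.63 with all 4 columns, and was -2.72 without RNAi group 2 and -2.19 without RNAi group 3. AT2G29500 turned to -0.0287 with median centring. Over 42 genes, 12 of 84 values changed sign when RNAi group 2 or 3 was left out, which leaves no residual degrees of freedom and so no test. No paired analysis was possible because there is 1 GUS control column, and it repeats that of RNAi group 1.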
